A study of Homo sapiens with 45 samples.

Results

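The regions described here are the MBD2 regions of DMSO-treated HEK293T cells at which none of the other 3 proteins of the study was listed. They were chosen by position: a region of the DMSO MBD2 peak list was kept when it overlapped, by 1 bp or more, no region of the DMSO lists of CTCF, MBD3 and TET1. This left 3132 of the 15991 DMSO MBD2 regions, or 19.6%, out of 53743 regions in the 12 lists of the series. HEK293T is an established human embryonic kidney line. The cells had spent 72 h in 1 of 3 treatments: DMSO as the solvent control; BPK25 at 30 µM, a cysteine-reactive compound known for lowering subunits of the NuRD complex; or IAA at 0.5 mM, an auxin that triggers degradation of degron-tagged proteins. Chromatin immunoprecipitation and sequencing was done with antibodies to CTCF, MBD2, MBD3 and TET1, with 3 libraries for each antibody and treatment and input libraries beside them. The labels mention edited derivatives of the line but name neither a degron nor the protein it would be on, and they do not say whether replicate libraries came from separate cultures.

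MBD2 binds methylated CpG dinucleotides through its methyl-CpG-binding domain and brings the NuRD complex, a nucleosome remodeller with histone deacetylase subunits, to methylated DNA. MBD3 is the alternative MBD subunit of NuRD and has lost most of the affinity for methylated CpG. TET1 oxidises 5-methylcytosine, and CTCF, a zinc finger protein that binds insulators and anchors chromatin loops, is hindered by methylation at many of its sites. MBD2 and MBD3 form separate NuRD complexes, so MBD2 can be found without MBD3.

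The authors pooled the 3 libraries of each antibody before calling peaks, so each list gives 1 value per group and no difference between lists can be tested against replicate error. Ranges in parentheses after shares are 95% Wilson intervals; they reflect the number of regions counted and no other error. The fold of a region is the authors' value, a linear ratio of the summit pileup to the local background. Pileup and local background, in fragments, were solved from the deposited fold and −log10 p. The smallest local background of a list, here called the floor, stands for its sequencing depth: it was 3.77 fragments for MBD2 in DMSO, against 4.35 for CTCF, 4.72 for MBD3 and 5.68 for TET1. Under BPK25 the floor of MBD2 was 1.86 fragments. The treated lists were short, with 374 to 777 regions under BPK25 and 95 to 595 under IAA, against 7211 to 17440 in DMSO. No genome or gene annotation of the files' build, hg19, was used here, so regions are given by position without sequence or gene.

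Most MBD2-alone regions had a low MBD2 enrichment, and a minority had a high one. Their MBD2 fold ran from 1.47 to 8.73 with a median of 3.77 and quartiles of 3.14 and 4.47. The 12859 other MBD2 regions had a median fold of 4.75 and quartiles of 3.93 and 5.75, with a maximum of 21.2. A fold of 5 or more was found at 419 MBD2-alone regions, which is 13.4% of them, where 37.2% of all DMSO MBD2 regions reached it. A −log10 q of 5 or more was found at 1975 of them, or 63.1%, against 86.1% of all. The MBD2 list chose these regions, so these values describe them and are not a test.

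Regions with more of the other proteins had a higher median MBD2 fold. The median MBD2 fold was 3.77 with none of the other 3, 4.29 at the 4587 regions with 1, 4.73 at the 4261 regions with 2 and 5.50 at the 4011 regions with all 3. Among regions with 1 partner the median was 4.31 at the 3661 regions with CTCF alone, 4.22 at the 629 with MBD3 alone and 4.02 at the 297 with TET1 alone. The interquartile range of fold without a partner, 3.14 to 4.47, overlapped that of regions with 1 partner, 3.63 to 5.05 but not that of regions with all 3, 4.51 to 6.71.

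**Figure D1:**
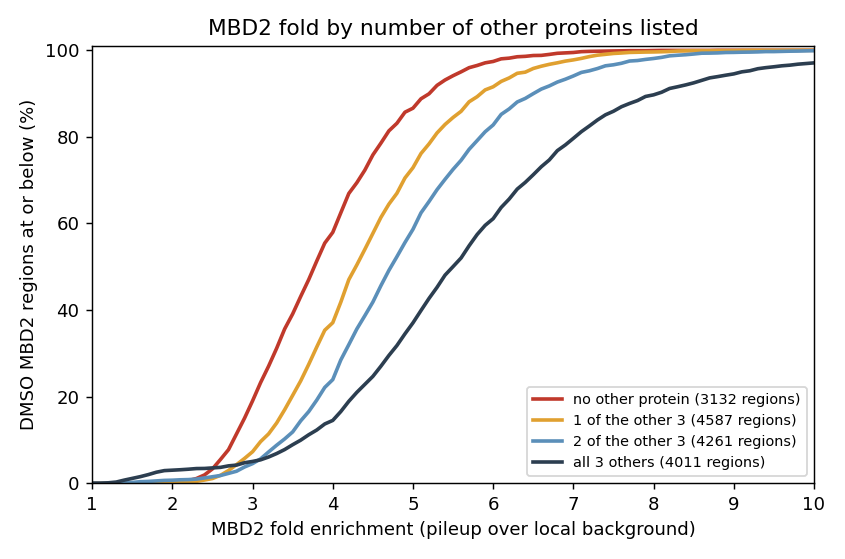
Cumulative share of DMSO MBD2 regions (vertical axis, %) at or below each MBD2 fold enrichment (horizontal axis, linear ratio), drawn for regions with 0, 1, 2 or 3 of the other proteins. The curves lie in that order from left to right from the lower quartile upward, with medians of 3.77, 4.29, 4.73 and 5.50.

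Fragment counts behind these folds were small. The summit pileup of MBD2-alone regions had a median of 27 fragments, with quartiles of 21 and 33, against 38 fragments, with quartiles of 30 and 49, at the other MBD2 regions. The local background below the summit was 6.01 fragments at the median, against 7.24. The pileup above background, taken region by region, had a median of 20.3 fragments at MBD2-alone regions and 31.0 at the others. The least pileup was 13 fragments in both groups, so the weakest regions rest on few fragments.

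A raised local background, taken as over 3 times the floor, was found at 151 MBD2-alone regions, or 4.82% (4.12 to 5.63), where 10.2% of all DMSO MBD2 regions had it. The remaining 2981 lay at or below that level. MBD2-alone regions were narrow. Their median width was 230 bp, with quartiles of 211 and 262, against 260 bp at the other MBD2 regions, and the narrowest were 198 bp in both groups. There were 79 of 3132 wider than 400 bp, against 912 of the 12859 others, and the widest was 808 bp against 2504 bp. More than 1 sub-peak was called in 29 of them, where 2.12% of all DMSO MBD2 regions had that. The summit fell in the central 50% of the region in 86.8% of MBD2-alone regions and in 95.8% of the others.

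Weak MBD2 regions were found alone far more often than strong ones. In the lowest decile of −log10 q, 909 of 1605 regions were alone, or 56.6% (54.2 to 59.0). The share was 22.3% in the fourth decile, 6.06% in the eighth and 0.375% (0.172 to 0.817) in the highest, where 6 of 1598 regions were alone. By quartile of fold the share went from 37.6% through 22.3% and 14.1% to 4.21%. Narrow regions were alone more often than wide ones, with 32.9% in the narrowest quartile and 9.36% in the widest.

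**Figure D2:**
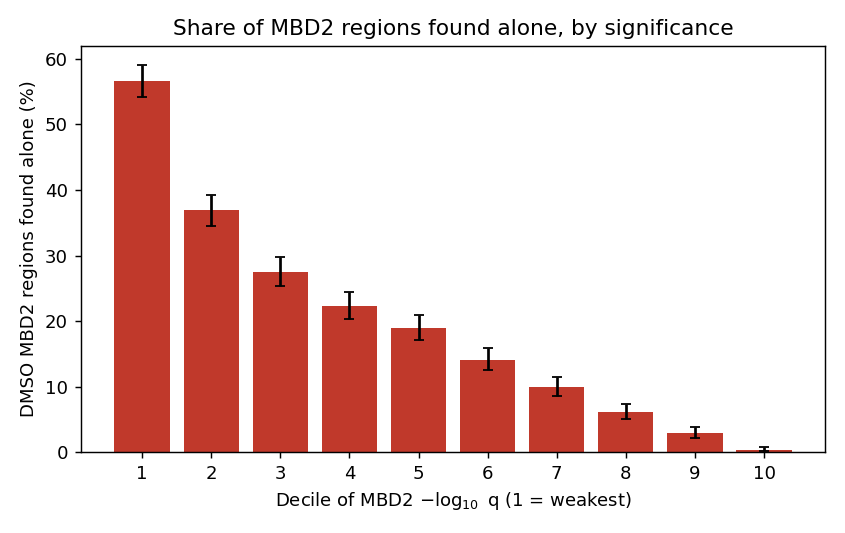
Share of DMSO MBD2 regions found alone (vertical axis, %) in each decile of MBD2 −log10 q (horizontal axis, 1 is the weakest). Bars are shares with 95% Wilson intervals and fall from 56.6% to 0.375%.

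On the scale of fold, at regions near the floor the other lists reached as low as that of MBD2, although not in fragments. At regions within 1% of the floor, the smallest fold listed was 2.92 for MBD2, 2.79 for CTCF, 2.80 for MBD3 and 2.68 for TET1, on pileups of 13, 14, 15 and 17 fragments in that order. The MBD2 fold of 2791 of the 3132 regions, or 89.1%, was above the CTCF limit, and 92.6% were above the TET1 limit. Only 2633, or 84.1%, were above the limit of the MBD2 list itself. At or below an MBD2 fold of 2.8 lay 11.4% of MBD2-alone regions. For MBD2 regions with 1, 2 and 3 of the other proteins it was 4.29%, 2.77% and 4.19%. Whether the other proteins would have been listed at MBD2-alone regions was not tested. Listed regions also lay below these limits, such as a CTCF region of fold 2.39, so they are not detection limits. Folds of different antibodies are not levels of the same quantity, so these limits are a description of the lists. Other proteins also had regions of their own: 23.4% of CTCF, 11.2% of MBD3 and 10.2% of TET1 regions in DMSO overlapped none of the other 3 lists. Those regions also had the lower folds of their own list, with medians of 3.64, 3.02 and 2.78 against 4.55, 3.96 and 3.46 at the rest.

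A minority of MBD2-alone regions had a high fold. The highest, 8.73, lay on chromosome 2 from 242820268 to 242820491 (hg19), where 47 fragments stood over a local background of 4.50. The nearest region of another protein was an MBD3 region 41453 bp away. A region on chromosome 12 from 91372019 to 91372279 had a fold of 8.01 and the largest −log10 p of all MBD2-alone regions, 40.1. Its 67 fragments stood over a background of 7.49, and the nearest other region, of CTCF, was 18281 bp away. On chromosome 10 from 46504010 to 46504372 the fold was 7.97, with 37 fragments over a background at the floor, 3.77. A region on chromosome 1 from 192280503 to 192280711 had a fold of 7.62, and the nearest region of any other protein was 134337 bp away. These 4 regions were well above the median MBD2-alone fold and also above the 4.75 of the median region that did have a partner.

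Leaving chromosome 8 aside, the next 6 regions by fold lay between 7.08 and 7.59, and 5 of them were over 10 kb from any other protein. The farthest from another protein among them was on chromosome 3 from 117438235 to 117438497, with a fold of 7.13 and 909187 bp to the nearest other region, of MBD3. On chromosome 5 from 85600867 to 85601137 the fold was 7.08 and the nearest region, of CTCF, was 374182 bp away. On chromosome 2, the region from 26394459 to 26394696 had a fold of 7.59 with 220259 bp to the nearest other region, while the one from 190935115 to 190935340 had a fold of 7.28 with 18161 bp. The region on chromosome 21 from 42493802 to 42494018 had a fold of 7.41. The closest to other proteins was on chromosome 9 from 138494624 to 138494889, with a fold of 7.18, where a CTCF region lay 829 bp away and an MBD3 region 950 bp away.

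Of the regions not yet named, these had the largest −log10 p. On chromosome 17 from 46868475 to 46868703, 85 fragments over a local background of 16.0 gave a fold of only 5.06 with a −log10 p of 33.7. On chromosome 2 from 200350736 to 200351013, 71 fragments over 9.24 gave a fold of 7.03 and a −log10 p of 38.2. Another region on chromosome 17, from 33219956 to 33220193, had 59 fragments and a fold of 6.67, and an MBD3 region lay 12019 bp from it. Chromosome 12 held one of fold 6.63 from 6172344 to 6172624, and chromosome 14 one of fold 5.64 from 63855576 to 63855834. Of the regions with 2 sub-peaks, the 3 of largest −log10 p had folds of 4.51 (chromosome 10, 29593303 to 29593754), 3.98 (chromosome 1, 28832427 to 28833004) and 5.03 (chromosome 13, 108974624 to 108975041).

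Most MBD2-alone regions were far from the other proteins. The median distance to the nearest region of the other 3 lists was 35.7 kb, with quartiles of 11.2 and 88.0 kb. Distances under 100 bp were found for 8 of them and under 500 bp for 57. Within 1 kb lay 125, or 3.99% (3.36 to 4.73), and 679, or 21.7%, had no other protein within 100 kb. The share within 1 kb changed with the rules used. It was 1.97% with a −log10 q of 5 or more in every list. It was 8.57% when only summits within 150 bp counted as shared. That rule counts as alone some regions that overlap another protein but have distant summits, and these lie within 1 kb by definition. CTCF, the longest of the other lists, was the nearest for 69 of these 125, with 38 for MBD3 and 18 for TET1. Median distances were 43.3 kb to CTCF, 78.0 kb to MBD3 and 115 kb to TET1, in the order of the lengths of these lists.

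**Figure D3:**
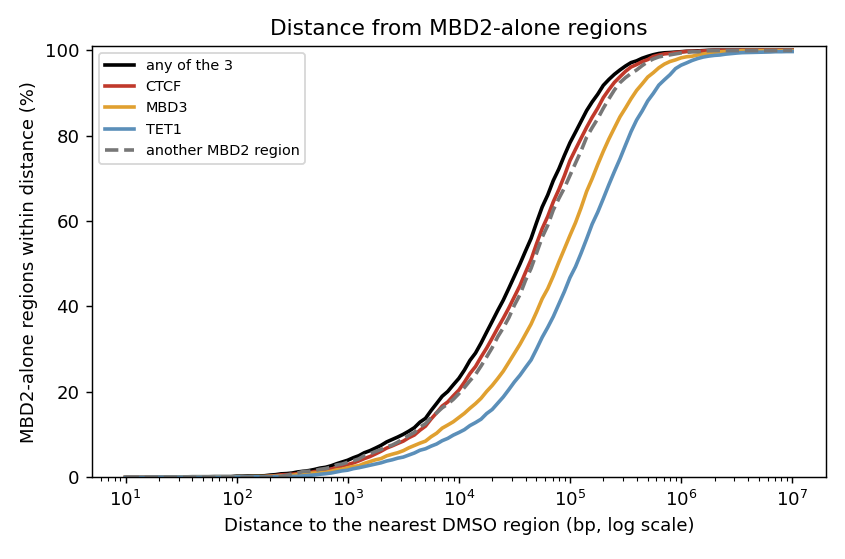
Cumulative share of MBD2-alone regions (vertical axis, %) within a given distance of the nearest DMSO region (horizontal axis, bp, log scale) of each other protein, of any of the 3, and of another MBD2 region (dashed). Few regions lie within 1 kb, and the medians are 43.3 kb for CTCF, 78.0 kb for MBD3 and 115 kb for TET1.

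Distances within the MBD2 list were of the same order. The nearest other MBD2 region lay at a median of 46.5 kb, against 35.8 kb for the MBD2 regions with a partner. Another MBD2 region lay within 10 kb of 613 of them, or 19.6%, where 21.9% of all DMSO MBD2 regions had one. A second MBD2-alone region lay within 10 kb of 174, or 5.56% (4.81 to 6.41). The share was 3.14% when only MBD2 regions with a −log10 q of 5 or more were kept. The 174 regions made up 84 pairs and 2 groups of 3. The first group of 3 lay on chromosome 1 from 153963173 to 153968224, with folds of 2.31 to 3.34, and the other on chromosome 13 from 92006034 to 92018086, with folds of 2.69 to 2.75. A pair on chromosome 19, from 15666693 to 15667468, spanned 776 bp with folds of 3.31 and 3.46.

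Just inside the boundary of the rule, a region on chromosome 11 from 93461504 to 93461711 had an MBD2 fold of 3.52 and a TET1 region 17 bp away. A region on chromosome 5 from 40831897 to 40832094, with a fold of 2.72, had an MBD3 region 22 bp away, and one on chromosome 9 from 35096144 to 35096497, with a fold of 4.67, had an MBD3 region 31 bp away. Just outside the boundary, a region on chromosome 9 from 131458410 to 131458845 with a fold of 3.18 shared 14 bp with an MBD3 region. A region on chromosome 3 from 185628783 to 185629071, with a fold of 2.92, shared 28 bp with a CTCF region of fold 2.64. Another, on chromosome 10 from 99194052 to 99194357, had a fold of 2.49 and shared 29 bp with a CTCF region of fold 2.39.

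All of chromosomes 1 to 22 and X held MBD2-alone regions, 3117 in all. Their share of the MBD2 regions of a chromosome was lowest on chromosome 17, with 118 of 845 or 14.0% (11.8 to 16.5), and on chromosome 19, with 15.5% (12.8 to 18.6). It was highest on chromosome 13, with 104 of 420 or 24.8% (20.9 to 29.1), and on chromosome 3, with 23.7% (20.9 to 26.7). The median MBD2 fold of all regions was 4.44 on chromosome 17, 4.84 on chromosome 19, 4.49 on chromosome 13 and 4.60 on chromosome 3.

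The treated lists were not used to choose the regions, and they hold very few of them. Of the 3132 regions, 37, or 1.18% (0.858 to 1.62), overlapped a region of any of the 8 treated lists, where 5.83% of all DMSO MBD2 regions did. Among the other MBD2 regions it was 896 of 12859, or 6.97% (6.54 to 7.42). Those with 1 partner gave 97 of 4587, or 2.11% (1.74 to 2.57), and those with all 3 gave 624 of 4011, or 15.6%. Of the 37 regions, 34 were in 1 treated list and 3 were in 2. With a −log10 q of 5 or more required in every list, the share in any treated list was 0.387%, and that in the BPK25 MBD2 list was 0.116%.

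For MBD2 itself under BPK25, 9 MBD2-alone regions were still listed, or 0.287% (0.151 to 0.545), where 1.45% of all DMSO MBD2 regions were. The other MBD2 regions gave 223, or 1.73% (1.52 to 1.97). The share differed by the number of partners: regions with 1 gave 0.218% (0.118 to 0.401), those with 2 gave 0.610% and those with all 3 gave 4.66% (4.05 to 5.36). MBD2-alone regions and regions with 1 partner had overlapping intervals. Because MBD2-alone regions were weaker, the other MBD2 regions were also weighted to the distribution of −log10 p of the MBD2-alone regions over 20 bins. Weighted in this way they gave 1.89%, and 1.25% once regions of raised background were left out. MBD2-alone regions without raised background gave 0.235% (7 of 2981). For any treated list the weighted share was 4.77%, and 3.29% once regions of raised background were left out. MBD2-alone regions without raised background then gave 0.939% (28 of 2981).

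The BPK25 MBD2 list was shallower, with a floor at 49.5% of the DMSO value. When the pileups of the MBD2-alone regions were thinned to that depth, 1659 of 3132, or 53.0%, would be expected past the least −log10 p of that list, 5.18. For the other MBD2 regions with a solved pileup the expectation was 10607 of 12841, or 82.6%, and 218 were listed. The calculation takes the listed pileups as true means, which raises the expectation because listed regions are chosen for high pileups. It also takes the ratio of floors as the ratio of depths. The number of regions listed under BPK25 was below the expected number in both groups, and whether depth accounts for this was not tested.

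**Figure D4:**
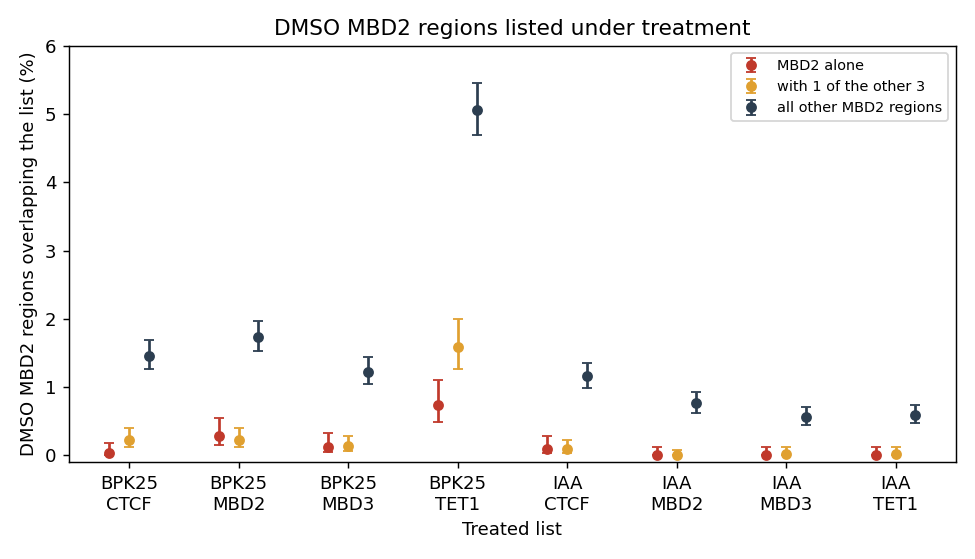
Share of DMSO MBD2 regions (vertical axis, %) that overlap a region of each treated list (horizontal axis), for MBD2-alone regions, regions with 1 of the other proteins, and all MBD2 regions with a partner. Points are shares with 95% Wilson intervals, and the MBD2-alone shares run from 0 to 0.734%.

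The MBD2-alone regions still listed for MBD2 under BPK25 had low folds in DMSO. Their DMSO folds ran from 1.47 to 3.84, with a median of 3.38, and 8 of the 9 were in the lowest quartile of DMSO fold. That quartile held 1504 of the 3132 MBD2-alone regions, and 121 of the 223 other MBD2 regions still listed. None of the 733 MBD2-alone regions in the upper 2 quartiles of fold was listed. Taking 3 regions as the upper limit of a count of 0, this allows a share of up to 0.409%. In those quartiles the other MBD2 regions gave 21 of 3434, or 0.612%, and 71 of 3820, or 1.86%. The BPK25 folds of the 9 ran from 1.80 to 21.9 with a median of 4.54, close to the 4.51 of the whole BPK25 list. Summits lay within 150 bp of each other in 8 of the 9, which overlap of narrow regions makes likely.

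The region with the highest BPK25 MBD2 fold lay on chromosome 2 from 38709029 to 38709244. It had 16 fragments and a fold of 3.56 in DMSO, and the overlapping BPK25 region, from 38708918 to 38709908, had 67 fragments and a fold of 21.9. Scaled to the BPK25 depth, the DMSO pileup would be 7.91 fragments. The same place carried a CTCF region of fold 63.2 under IAA. A region on chromosome 6 from 74229126 to 74229356, with a DMSO fold of 2.55, overlapped a BPK25 region of fold 5.01 and also a CTCF region of fold 9.66 under IAA, whose summits lay 363 and 344 bp from the DMSO summit. The third such region, on chromosome 10 from 135500874 to 135501094, had a local background of 66.9 fragments and folds of 1.47 in DMSO and 1.80 under BPK25, with 63 fragments against 49.0 scaled. These 3 were the only MBD2-alone regions with a CTCF region under IAA, and 6 others, or 0.192% (0.0878 to 0.417), were listed for MBD2 under BPK25, a count added after seeing the data.

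At 5 further regions the BPK25 pileup is given against the DMSO pileup scaled to the same depth. On chromosome 12 from 54678555 to 54678804 it was 16 fragments against 12.9 scaled, and on chromosome 17 from 80722854 to 80723147 it was 14 against 8.90. On chromosome 18, the regions from 32420461 to 32420708 and from 19431335 to 19431568 had 16 against 13.4 and 12 against 9.89. On chromosome 3 from 93834428 to 93834666 it was lower, 13 against 19.8. The DMSO folds of these 5 regions were 3.28 to 3.84, and their BPK25 folds were 4.01 to 4.89. All 9 regions were picked because MBD2 was listed there under BPK25. Within 1% of the floor, that list held no pileup under 10 fragments and no fold under 3.84. Such a choice favours high BPK25 pileups and folds, so whether MBD2 rose at these regions was not tested. The last of the 9, named after its values were seen, lay on the unplaced contig Un_gl000225 from 112754 to 113162, where a DMSO fold of 2.76 stood beside a BPK25 fold of 2.96, with 66 fragments against 53.4 scaled.

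The BPK25 list that met the most MBD2-alone regions was that of TET1, also the longest treated list. TET1 was listed at 23 of them, or 0.734% (0.490 to 1.10), where 4.21% of all DMSO MBD2 regions had it. By the rule none of them was a TET1 region in DMSO. The share was 1.48% (1.13 to 1.92) at regions with CTCF alone, 1.59% (1.27 to 2.00) over all regions with 1 partner, 5.06% (4.70 to 5.46) over all MBD2 regions with a partner and 11.3% at those with all 3. Weighted to the −log10 p of the MBD2-alone regions, MBD2 regions with a partner gave 2.53%. Once regions of raised background were left out they gave 1.98%, against 0.570% (17 of 2981) of MBD2-alone regions. In the lowest quartile of DMSO MBD2 fold the shares were 0.997% (0.605 to 1.64) and 5.05% (4.26 to 5.98), and in the highest they were 0.595% (1 of 168, 0.105 to 3.29) and 8.35% (7.51 to 9.27).

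The BPK25 list of TET1 had a floor of 1.16 fragments, against 5.68 in DMSO. Its summits lay close to those of the MBD2-alone regions. The distance between summits had a median of 34 bp and was within 150 bp for 21 of 23. These pairs were chosen by overlap of narrow regions, which makes close summits likely, so the distance only describes them. Their TET1 fold ran from 2.11 to 8.34 with a median of 5.06, near the 5.26 of the whole list, on pileups of 8 to 55 fragments with a median of 13. The highest was on chromosome 12 from 10292688 to 10292929, with a TET1 fold of 8.34 on 17 fragments under BPK25, an MBD2 fold of 4.47 in DMSO and summits 5 bp apart. On chromosome 1 from 167237114 to 167237374 the TET1 fold was 7.51 and the MBD2 fold 4.45, and on chromosome 16 from 23072091 to 23072312 they were 6.74 and 4.92. In DMSO the nearest TET1 regions to these 3 were 50599, 419841 and 161623 bp away. None of the 23 was listed for MBD2 under BPK25, where 9 of all 3132 MBD2-alone regions, or 0.287%, were. At so low a share, 23 regions are too few to tell whether these lists avoid each other.

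**Figure D5:**
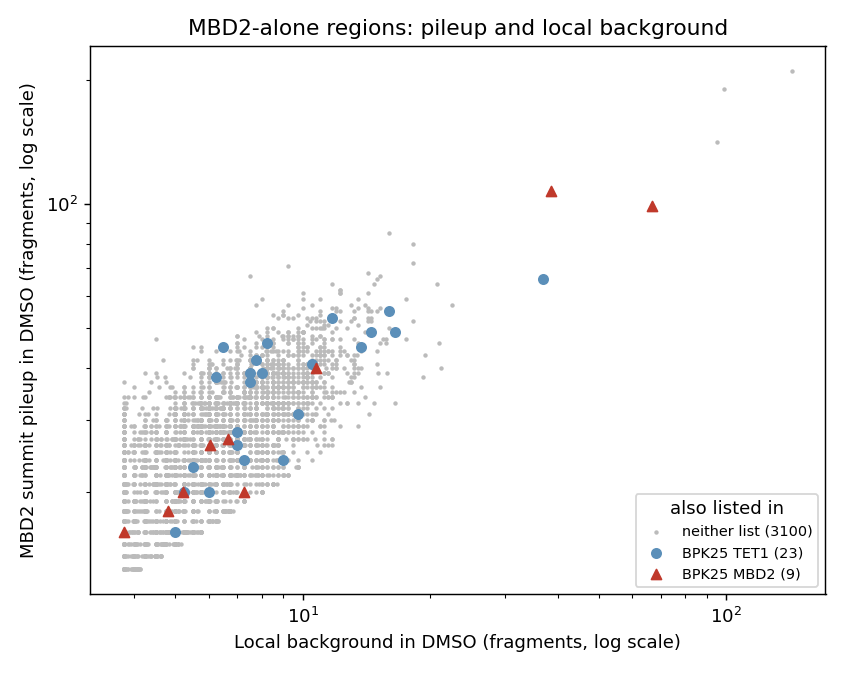
MBD2 summit pileup (vertical axis) against local background (horizontal axis), both in fragments on log scales, for the 3132 MBD2-alone regions in DMSO. Blue circles are the 23 also listed for TET1 under BPK25, red triangles the 9 also listed for MBD2 under BPK25, 2 of which have local backgrounds of 66.9 and 38.5 fragments.

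The other treated lists held almost none of the MBD2-alone regions, and they were shallow. Floors were 0.256 fragments for BPK25 CTCF, 0.374 for BPK25 MBD3 and 0.937 for IAA CTCF, and 1.08, 0.911 and 1.14 for IAA MBD2, MBD3 and TET1, against 3.77 to 5.68 in DMSO. Within 1% of the floor lay only 4 regions for IAA MBD2, 1 for IAA MBD3 and 2 for IAA TET1. The DMSO lists had 308 to 1119, so the depth of these IAA lists is less certain. A region missing from a shallow list was not detectable at that depth or not bound, and these cannot be told apart here. BPK25 MBD3 met 4 of them (0.128%, 0.0497 to 0.328), where 1.01% of all DMSO MBD2 regions had one, and BPK25 CTCF met 1, where 1.18% had one. Pileups there were small, from 5 to 13 fragments for MBD3, with folds of 4.28 to 6.68, and 6 fragments for CTCF, with a fold of 5.29. IAA CTCF met 3 (0.0958%, 0.0326 to 0.281), where 0.951% had one. For BPK25 MBD3, BPK25 CTCF and IAA CTCF, regions with 1 partner gave 0.131%, 0.218% and 0.0872%. Once regions of raised background were left out, MBD2-alone regions gave 0.101%, 0.0335% and 0.0671%. The other MBD2 regions then gave 0.264%, 0.414% and 0.290%. No MBD2-alone region was listed for MBD2, MBD3 or TET1 under IAA, with an upper Wilson limit of 0.123%. Of all DMSO MBD2 regions, 0.613%, 0.457% and 0.475% were listed there. Regions with 1 partner were also nearly absent there, with 0, 1 and 1 of 4587. Of the 98 DMSO MBD2 regions still listed for MBD2 under IAA, 89 had all 3 partners, and all 98 had a local background over 3 times the floor or one that was not solved.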

How the data were processed

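The deposited data were 12 peak lists, 1 per antibody and treatment, called by the authors on pooled replicates. Per the submitters' processing notes, the build was hg19 and the software included MACS2 2.1.2 and Bowtie2 2.3.4. No source used here gives the caller's settings. Per the narrowPeak layout of the deposited files, the fold is a linear ratio, and the −log10 of the p-value and q-value and the summit offset follow. Sub-peaks with equal start and end were merged, keeping the largest −log10 p. Pileup k and background λ were solved from fold = (k + 1)/(λ + 1) and the Poisson tail, for −log10 p up to 150; all 3132 MBD2-alone regions were solved. Depth of single libraries is unknown.

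Named regions lie on chromosomes other than 8 and were picked by rank: highest fold with a −log10 q of 5 or more (10), highest −log10 p among the rest (5), overlap with treated lists, sub-peaks, the boundary of the rule, and groups within 10 kb. Members, lists and rules were chosen with earlier results of these data known. Regions overlapping by 1 bp or more counted as shared. With pooled lists no test between treatments could be made. Alternatives changed the −log10 q threshold, the overlap rule, the chromosomes and the background allowed. Scripts were tested on simulated data. Python 3.11.15, numpy 2.4.6, pandas 2.3.3, SciPy 1.17.1 and matplotlib 3.10.9 were used.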

Additional observations from a re-analysis of the deposited data

How the results depend on the processing

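Of 49 recomputed values, 34 stayed within the 95% interval of the reported value and 15 fell outside it. With a −log10 q of 5 or more in every list, 18.8% of MBD2 regions were alone, 0.116% of these had a BPK25 MBD2 region and 0.387% a region of any treated list; 1.97% lay within 1 kb of another protein, 3.99% within 10 kb of another MBD2-alone region, and the median fold was 4.20. With that threshold on MBD2 only, the values were 14.3% alone, 2.33% within 1 kb, 3.14% within 10 kb and a median fold of 4.26. Counting summits within 150 bp as shared gave 20.6% alone, 8.57% within 1 kb and 7.08% within 10 kb. An overlap of 50% of the shorter region gave 5.29% within 1 kb. Both of these overlap rules count as alone some regions that overlap another protein, and such regions lie within 1 kb by definition. Without regions of raised background, 20.8% were alone. Leaving out the MBD2 list under BPK25 and the CTCF list under IAA, chosen after seeing the data, left 28 regions (0.894%) in a treated list. No paired analysis was possible because each list pools its 3 replicates, and for the same reason no replicate could be left out. The counts under treatment, 37 at most, and pileups of 13 fragments upward limit the precision.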

Other observations

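Off chromosomes 1 to 22 and X, 15 of 114 DMSO MBD2 regions were alone, or 13.2% (8.14 to 20.6), against 19.6% on them. Of these, 5 lay on the unplaced contig Un_gl000225, where 6 MBD2 regions were listed in all. They included a pair from 10820 to 12970, with folds of 2.83 and 3.50, and a pair from 112754 to 116784, with folds of 2.42 and 2.76. The contig 9_gl000199_random held 36 MBD2 regions, of which 1 was alone.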
